A study of Homo sapiens with 3 samples.

Results

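Keratin genes were examined in KYSE30, an established line of human esophageal squamous cell carcinoma, across 3 RNA sequencing libraries. A gene was taken when its identifier maps to a symbol made of KRT, a number and at most 1 letter from A to C, and when GENCODE lists it as protein-coding. That rule leaves out keratin pseudogenes and keratin-associated genes, and it uses no measured value. It found 55 of the 60554 genes in the table, of which 29 are type I and 26 are type II.

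Keratins are the intermediate filament proteins of epithelia. Each filament is built from pairs of an acidic type I chain and a basic or neutral type II chain, and a chain without a partner is usually degraded, so the classes are expressed together. The type I genes lie in a cluster on chromosome 17, apart from KRT18, which sits beside KRT8 in the type II cluster on chromosome 12. In the stratified lining of the esophagus, the basal layer carries KRT5, KRT14 and KRT15, and the layers above carry KRT4 and KRT13. KRT8, KRT18, KRT19, KRT7 and KRT20 are the keratins of simple, single-layered epithelia, and many carcinomas express some of them. KRT6A, KRT6B, KRT6C, KRT16 and KRT17 are called stress keratins because wounded or proliferating epidermis switches them on.

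The lines were made by lentiviral delivery of shRNAs in the vector pLKO.1-blast, and the question behind the design is what differs when SNORD12B, a small nucleolar RNA, is knocked down. The control line is labelled as vector in its genotype field, while the protocol describes a scrambled shRNA without a target. The other 2 lines carry different shRNAs against SNORD12B and are called here the lines labelled shRNA 1 and shRNA 2. All 3 lines had gone through virus for 24 hours and 5 ug/mL blasticidin for 2 weeks in medium with 10% serum, and the labels do not say whether any of them is a clone. Each line gave 1 library, so the 2 shRNA lines stand in as replicates. A p-value reflects how far these lines lie apart, for the most part as estimated over all genes tested and less in the gene itself. Nothing shows how far repeat cultures of the control would vary.

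Total counts per library lay between 15146805 and 17336936. The targeted RNA itself, SNORD12B, had 7 counts in the control, against 15 with the label shRNA 1 and 1 with the label shRNA 2. The count ratio to the control was 2.17 in the shRNA 1 library, with a 95% exact conditional interval from 0.831 to 6.28 that includes no difference. In the shRNA 2 library it was 0.126 (0.0028 to 0.982). For the library labelled shRNA 1 these few counts thus show neither a knockdown nor its absence. Every direction given for that library below rests on its label alone. Of the 9 markers of squamous epithelium listed, 8 were expressed well enough to test. Of these, 6 lay below the control in both lines, beside 27.0% of all genes tested. The summed level of the list was 2038, 1222 and 1845 CPM in the control, shRNA 1 and shRNA 2 libraries, where CPM is a count scaled to the size of its library. KRT5, the defining basal type II keratin on that list, was close to absent, as described below. Markers of fibroblasts summed to between 9.47 and 16.02 CPM with 4 of the 7 at 0 in every library, those of leukocytes to at most 2.24 CPM and those of endothelium to at most 5.81 CPM. The part of these markers in the keratin values was not tested. In bulk RNA, fewer cells of a kind and less RNA per cell cannot be told apart.

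Keratins took 0.887% of all counts in the control, 0.799% in the shRNA 1 library and 0.976% in the shRNA 2 library. Of the 55 genes, 16 reached 1 CPM in at least 1 library and are named below, and 17 passed the filter on low counts, the extra gene being KRT9. Of the other 39, 27 had no count in any library and 12 had between 1 and 13 counts in their highest library. Levels of different genes are compared only per kilobase, as CPM divided by the exon length in the deposited table, and differences as log2 ratios. The limit that a count of 0 allows, 3 counts, corresponds to 0.195, 0.197 and 0.172 CPM in the 3 libraries, and the intervals below cover counting error only.

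Simple epithelial keratins made up nearly all of the keratin RNA. Their summed level per kilobase was 1997 in the control, 1744 in the shRNA 1 line and 2391 in the shRNA 2 line, which is 88.2%, 92.2% and 91.8% of the keratin level. KRT19, KRT8 and KRT18 were the 3 highest keratins in every library. Their order depends on the length used: by the table's exon length the control held 825 for KRT19, 634 for KRT8 and 517 for KRT18, whereas by the length of GENCODE's principal transcript KRT8 came first with 2054, ahead of KRT19 with 1387 and KRT18 with 1064. The table gives KRT8 6881 exonic bases, against 2126 in the principal transcript.

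**Figure D1:**
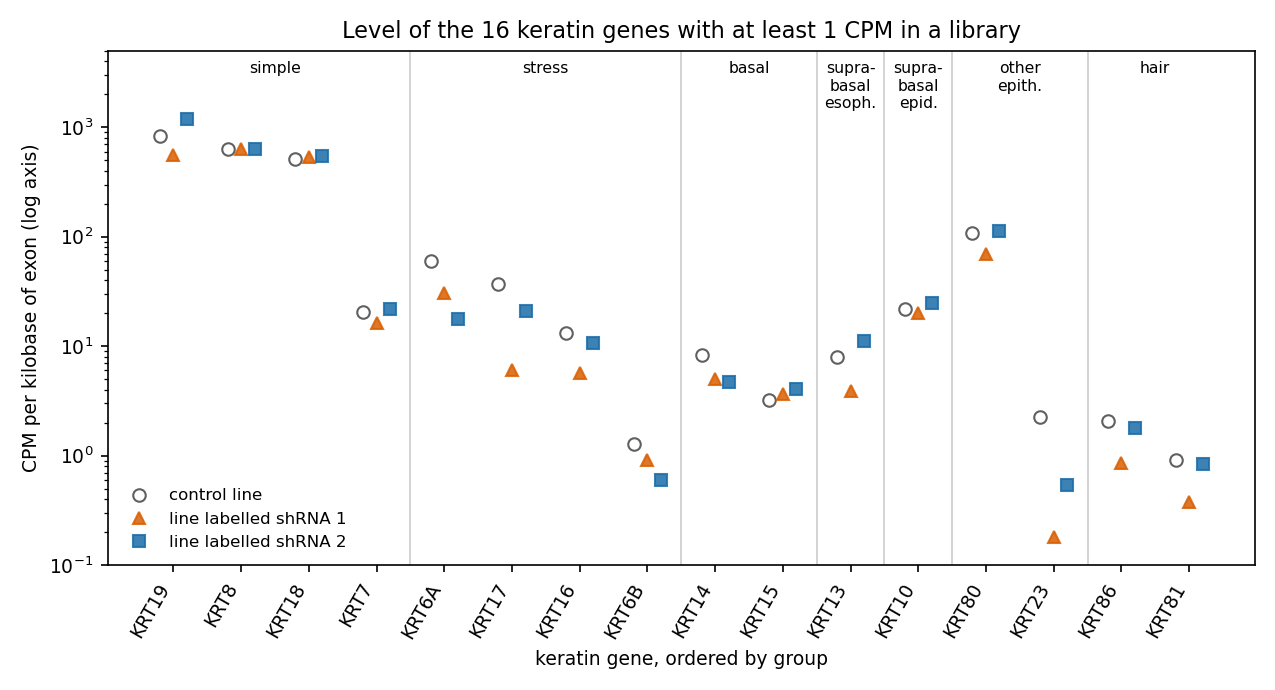
Level per kilobase of exon, in CPM per kilobase on a log axis, of the 16 keratin genes with at least 1 CPM in a library, with 1 point per library. KRT19, KRT8 and KRT18 stand above 500 in every library, and the next gene, KRT80, lies between 70.2 and 114.

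KRT8 and KRT18, the obligate partners of simple epithelium, barely differed between the lines. KRT8, on chromosome 12 from 52897187 to 52949954 (hg38, minus strand), had 67061 counts in the control, 65922 in the shRNA 1 library and 75495 in the shRNA 2 library, or 4366, 4335 and 4340 CPM. Its count ratio to the control was 0.993 (95% exact conditional interval 0.982 to 1.004) in the shRNA 1 line and 0.994 (0.984 to 1.005) in the shRNA 2 line. KRT18, on the opposite strand from 52948871 to 52952901, stood at 1662, 1728 and 1747 CPM, with 25533, 26279 and 30381 counts. The 3 libraries lay within a few percent of each other for both genes, and the level of KRT18 per unit of KRT8 was 0.814 in the control, 0.852 in the shRNA 1 line and 0.860 in the shRNA 2 line. By the length of the principal transcript it was 0.518, 0.542 and 0.548. The log2 fold change of the shRNA lines against the control was -0.01 ± 0.27 (SE) for KRT8 and 0.06 ± 0.28 for KRT18, both with adjusted p = 1 by edgeR's quasi-likelihood test. Their exons overlap over 16.3% of the bases of KRT18, so their reads may be mixed there.

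KRT19, the type I keratin that lacks most of the tail domain and is also found in basal cells of some stratified linings, lay on opposite sides of the control in the shRNA lines. It had 29612 counts in the control, 19903 in the shRNA 1 library and 48587 in the shRNA 2 library, or 1928, 1309 and 2793 CPM. The shRNA 1 library was the lowest and the shRNA 2 library the highest, 2.13 times as high (95% exact conditional interval 2.10 to 2.17). The joint log2 fold change was 0.09 ± 0.41 (SE) with adjusted p = 1 by edgeR, from log2 ratios of -0.56 in the shRNA 1 line and 0.54 in the shRNA 2 line. KRT19 lies on chromosome 17 from 41523617 to 41528308. The ratio of its level per kilobase to that of KRT8 was 1.30, 0.889 and 1.90 in the same order, and 0.675, 0.462 and 0.984 by the length of the principal transcript, by which KRT8 was the higher of the pair in all 3 libraries.

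KRT7, a type II keratin of ducts and glands, was at 84.0 CPM in the control, 66.9 in the shRNA 1 line and 89.2 in the shRNA 2 line. Its log2 ratios were -0.33 and 0.09. KRT20, the keratin of the intestinal lining, had 1 count in the shRNA 2 library and none in the other 2.

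Stress keratins differed most between the control and both shRNA lines among the groups that summed to over 10 per kilobase in the control. They summed to 111 per kilobase in the control, 43.4 in the shRNA 1 line and 49.7 in the shRNA 2 line, and their share of the keratin level was 4.92%, 2.30% and 1.91%. The log2 ratio of the sum to the control was -1.36 and -1.16, with a mean of -1.26 ± 0.14 (SD, n = 2 lines). All 4 tested members, KRT6A, KRT6B, KRT16 and KRT17, lay below the control in both lines, beside 27.0% of all 17801 genes tested. Their median log2 fold change was -1.02, against 0.01 over all those genes. No member passed the adjusted threshold of 0.05 in edgeR's test over all genes. The summed level of the squamous markers given above was also lowest in the shRNA 1 library, and their part in these values was not tested.

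The coding sequences of these genes are much alike, and a short read cannot always be given to 1 of them. A stretch of coding bases 663 to 722 of the 3 KRT6 genes (GENCODE 29 transcripts, sense strand) is shown because it holds 9 of the positions by which a read can tell them apart. Capitals mark the bases that differ between any of the 3.

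KRT6A: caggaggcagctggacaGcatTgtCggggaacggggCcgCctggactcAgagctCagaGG
KRT6B: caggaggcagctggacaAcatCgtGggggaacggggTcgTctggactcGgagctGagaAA
KRT6C: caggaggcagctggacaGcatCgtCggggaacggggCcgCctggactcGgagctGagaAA

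Across the whole coding sequence KRT6A was 97.52% identical to KRT6B and 97.93% to KRT6C, and 32.1% of the stretches of 50 bases in KRT6A transcripts also occur in transcripts of other genes. A read that covers such a stretch fits more than 1 gene, so values of KRT6A, KRT6B and KRT6C are uncertain to that extent.

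KRT6A, the main type II stress keratin here, had 2683 counts in the control, 1370 in the shRNA 1 library and 894 in the shRNA 2 library, or 175, 90.1 and 51.4 CPM. The control was the highest library and the shRNA 2 library the lowest, with count ratios to the control of 0.516 (0.483 to 0.551) in the shRNA 1 line and 0.294 (0.273 to 0.318) in the shRNA 2 line. The log2 fold change was -1.30 ± 0.37 (SE), with adjusted p = 1 by edgeR's quasi-likelihood test. KRT6A lies on chromosome 12 from 52487174 to 52493257 (minus strand), and an unnamed antisense gene, ENSG00000281194, overlaps 4.41% of its exonic bases. That partner had 445, 231 and 172 counts, which is 16.6%, 16.9% and 19.2% of the KRT6A count in the same libraries.

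KRT6B, its close relative, had 45, 32 and 24 counts, or 2.93, 2.10 and 1.38 CPM, and its count ratio in the shRNA 1 line, 0.718, has an interval from 0.442 to 1.16 that includes no difference. KRT6C had 2 counts in the control and none in the shRNA lines. The KRT6C counts lie below the limit of 3 counts given above and show no order of the libraries. KRT6B had the same order as KRT6A, with the control highest and the shRNA 2 library lowest. However, 47.1% of the stretches in KRT6B also occur in other genes, and 28.9% occur in KRT6A. The part of shared reads in the KRT6B values was not tested, so its order is no independent evidence.

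KRT16 and KRT17 are the type I partners of KRT6 chains, and they lie next to KRT14 on chromosome 17. Over the whole coding sequence KRT14 was 87.64% identical to KRT16 and 83.8% to KRT17. Stretches of 50 bases shared with other genes, pseudogenes included, made up 16.8% of KRT14, 16.5% of KRT16 and 9.02% of KRT17.

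KRT17 had 1453 counts in the control, 235 in the shRNA 1 library and 921 in the shRNA 2 library, or 94.6, 15.5 and 53.0 CPM. The shRNA 1 library stood far below the other 2, at 0.163 of the control (0.142 to 0.188), and the shRNA 2 library at 0.560 (0.515 to 0.608). The log2 fold change was -1.47 ± 0.57 (SE) with adjusted p = 1 by edgeR, and it was -2.63 with the shRNA 1 line alone and -0.84 with the shRNA 2 line alone. With no filter on low counts, where 29390 genes were tested, the same test gave adjusted p = 0.0382 for KRT17.

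KRT16 stood at 32.6 CPM in the control, 14.0 in the shRNA 1 line and 26.5 in the shRNA 2 line, with 500, 213 and 461 counts. Its log2 ratios were -1.21 and -0.30, and the log2 fold change of -0.68 ± 0.43 (SE) had adjusted p = 1 by edgeR. The pseudogene KRT16P6 had 119, 18 and 28 counts. It shares 5.92% of the 50-base stretches of KRT14 and is not among the 3 genes that share most with KRT16.

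The type I and type II stress keratins did not keep 1 ratio across the lines. The level of KRT17 per unit of KRT6A was 0.625 in the control, 0.198 in the shRNA 1 line and 1.19 in the shRNA 2 line, because the shRNA 1 line had the least KRT17 and the shRNA 2 line the least KRT6A. KRT16 per unit of KRT6A was 0.220, 0.184 and 0.610. Summed over KRT16 and KRT17 against KRT6A and KRT6B, the ratio was 0.828, 0.371 and 1.74. These ratios come from 1 library each and have no test.

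**Figure D2:**
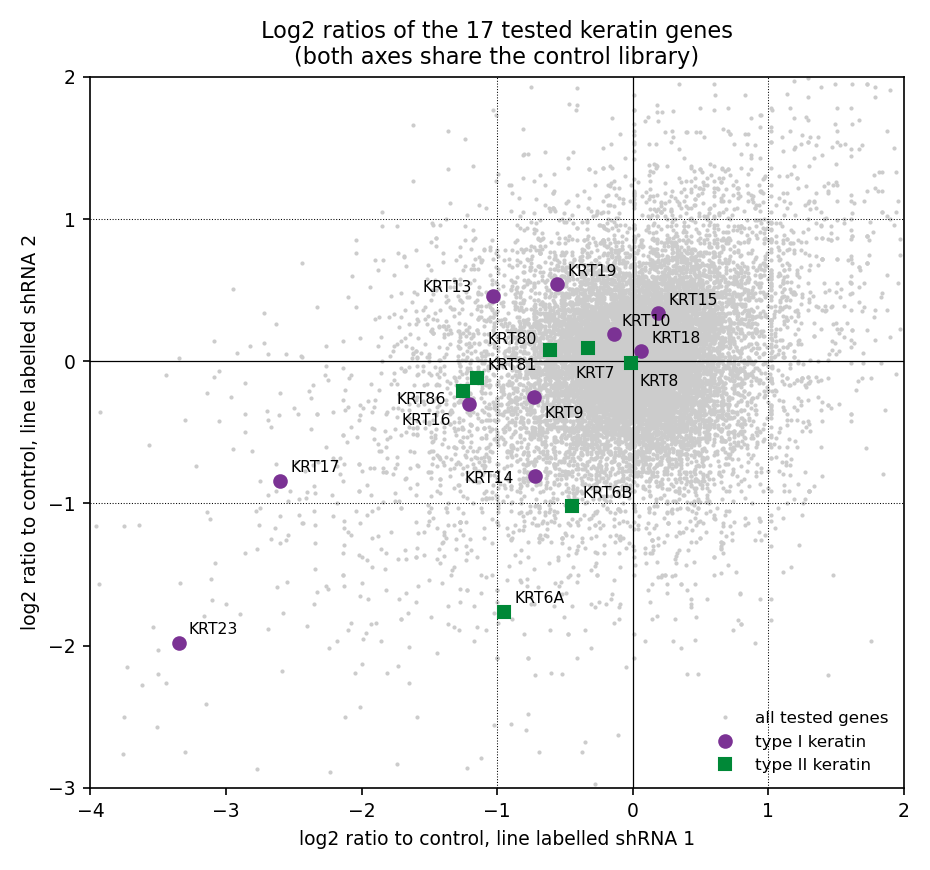
Log2 ratio to the control in the line labelled shRNA 1 (x axis) and the line labelled shRNA 2 (y axis) for the 17 tested keratins, coloured by type, over all tested genes in grey, of which 105 lie outside the axes. Both axes share the control library. KRT23 is the only keratin below -1 on both axes, KRT17 lies far left and KRT6A far down, and KRT8 and KRT18 lie at the centre.

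Basal keratins were at low levels. KRT5, the type II chain of basal cells, had 1 count in the control, 3 in the shRNA 1 library and 2 in the shRNA 2 library, which is at or below the limit of 3 counts, so no fold is given. Its usual type I partner KRT14 had 292, 175 and 187 counts, or 19.0, 11.5 and 10.8 CPM. The shRNA libraries were close to each other and below the control, with log2 ratios of -0.72 and -0.81 and a log2 fold change of -0.77 ± 0.38 (SE, adjusted p = 1 by edgeR). Reads of KRT14 may be shared with KRT16P6, whose counts are given above, and the part of such reads in the KRT14 values was not tested. KRT15, a type I keratin of basal and stem-like cells, was at 22.9, 26.1 and 28.9 CPM, the control being the lowest. Its log2 fold change was 0.27 ± 0.36 (SE, adjusted p = 1 by edgeR), and its ratio in the shRNA 1 line, 1.14, has an interval from 0.987 to 1.32. Per kilobase the group summed to 11.6, 8.78 and 8.82, with a log2 ratio of -0.40 and -0.39. Without division by length its mean log2 ratio was -0.11.

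Among the keratins of the suprabasal esophagus, KRT13 was the 1 gene expressed. It had 359, 173 and 560 counts, or 23.4, 11.4 and 32.2 CPM, with the shRNA 1 line lowest and the shRNA 2 line highest. The shRNA 2 library was 2.83 times as high as the shRNA 1 library (95% exact conditional interval 2.38 to 3.38), and the joint log2 fold change was -0.10 ± 0.55 (SE, adjusted p = 1 by edgeR). An antisense gene overlapping 16.3% of its exonic bases had 82, 41 and 153 counts in the same order. KRT4, the type II partner of KRT13 in the esophagus, and KRT78 had 1 count each, in the shRNA 2 library.

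Of the epidermal suprabasal keratins, KRT10, which replaces KRT14 when epidermal cells leave the basal layer, stood at 46.5, 42.3 and 53.2 CPM. Its log2 ratios of -0.14 and 0.19 were small. KRT1, its type II partner in skin, had 1 count, in the shRNA 1 library. KRT9, the keratin of palm and sole skin, had 13, 7 and 12 counts and stayed under 1 CPM. It was tested but lies outside the naming rule, and it is named here because it is the 1 tested gene below that level.

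KRT80, a type II keratin that is widespread in epithelia and enriched near cell junctions, was the fourth most abundant keratin per kilobase in every library. It had 7175, 4645 and 8601 counts, or 467, 305 and 495 CPM. The shRNA 1 line was below the other 2, with log2 ratios of -0.61 and 0.08. KRT23, a type I keratin found in several carcinomas, had 100 counts in the control, 8 in the shRNA 1 library and 27 in the shRNA 2 library, or 6.51, 0.526 and 1.55 CPM. The control was far above both, and the count ratios were 0.0808 (0.0340 to 0.166) in the shRNA 1 line and 0.239 (0.150 to 0.368) in the shRNA 2 line. Its log2 fold change of -2.62 ± 0.66 (SE) was the lowest of the 17, with adjusted p = 1 by edgeR's quasi-likelihood test, and adjusted p = 0.00482 when no filter on low counts was applied. KRT23 shares no stretch of 50 bases with another gene, but an antisense gene overlaps 6.41% of its exonic bases, with 19, 3 and 8 counts.

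Hair keratins were low. KRT86 had 77, 31 and 75 counts and KRT81 had 27, 11 and 28, and both encode type II chains of the hair cortex. In each the shRNA 1 library was the lowest, with log2 ratios of -1.25 and -0.21 for KRT86 and of -1.15 and -0.12 for KRT81. The level of KRT81 per unit of KRT86 was 0.435, 0.440 and 0.463. Their coding sequences were 92.91% identical, and 43.7% of the stretches of 50 bases in KRT81 occur in other genes, so these 2 genes may share reads. The pseudogene KRT87P, with 97, 95 and 95 counts, shares 8.87% of the stretches of KRT81 and 7.22% of those of KRT86. Antisense genes overlap 3.34% of the exonic bases of KRT86, with 6, 16 and 23 counts for ENSG00000257829 and 8, 5 and 11 for ENSG00000257830. The part of such reads in these values was not tested. Of the 17 hair keratins, 12 had no count in any library, as did 7 of the 8 keratins of the inner root sheath and KRT75 of the companion layer.

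**Figure D3:**
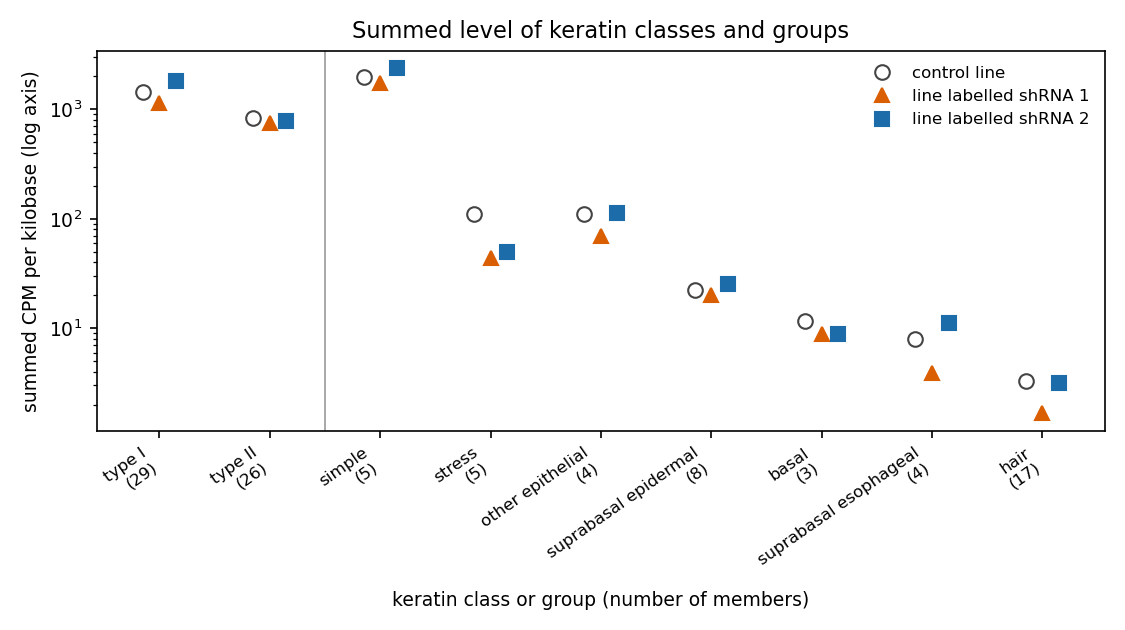
Summed level per kilobase of the keratin groups by library, in CPM per kilobase on a log axis. The simple keratins lie between 1744 and 2391, and the stress keratins at 111 in the control and 43.4 and 49.7 in the shRNA lines.

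Summed over all members, type I keratins stood at 1436 per kilobase in the control, 1142 in the shRNA 1 line and 1816 in the shRNA 2 line, and type II keratins at 827, 750 and 788. The ratio of type I to type II was 1.74, 1.52 and 2.31, and 1.12, 0.958 and 1.44 by the length of the principal transcript. Type II levels lay closer together than type I levels in these 3 libraries. Most of the type II level sat in KRT8, at 634, 630 and 631 per kilobase. With KRT8 left out, the mean log2 change of the type I to type II ratio against the control was 0.49 in place of 0.11. Most of the type I differences in this sum sat in KRT19, whose level per kilobase was 825, 560 and 1196. Over all genes tested, 27.0% were below the control in both lines and 28.2% above in both. Of the 10 tested type I genes, 5 were below the control in both lines and 2 above in both, with a median log2 fold change of -0.32. Those below were KRT9, KRT14, KRT16, KRT17 and KRT23. Of the 7 tested type II genes, 5 were below in both and 0 above in both, with a median of -0.58. Those below were KRT6A, KRT6B, KRT8, KRT81 and KRT86, of which KRT8 was below by 0.01 only and lay at 0.01 above with scaling by total counts.

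No keratin passed the adjusted threshold in edgeR's quasi-likelihood test, which called 0 of 17801 genes (0.0%). At an unadjusted p under 0.05 it put 164 of the 17801 genes lower and 73 higher. Of the 17 tested keratins, 3 were among those lower, KRT17, KRT23 and KRT6A, and 0 among those higher. DESeq2 called 15 genes, the likelihood ratio test of edgeR 38 and limma-voom 1, with 0 keratins among them. When low counts were kept in, the quasi-likelihood test called 37 of 29390 genes lower (0.126%), and 2 of the 28 keratins tested there, KRT17 and KRT23, were among them.

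By size alone, KRT23 was the 1 keratin of 17 at least 2-fold lower in both shRNA lines, beside 1.19% of all tested genes, and 0 keratins were at least 2-fold higher in both, beside 0.977%. In the shRNA 1 line, 6 keratins were at least 2-fold lower, KRT13, KRT16, KRT17, KRT23, KRT81 and KRT86, beside 5.58% of all genes, and 0 were 2-fold higher, beside 3.74%. In the shRNA 2 line, KRT6A, KRT6B and KRT23 were at least 2-fold lower, beside 3.46% of all genes, and 0 were higher by that much, beside 2.98%. Lying on 1 side of the control in both lines was common: 27.0% of all genes lay below it in each line and 28.2% lay above, beside 10 and 2 of the 17 keratins. The keratins above it in both were KRT15 and KRT18. The 2 comparisons share the control library, so agreement between them is no independent evidence.

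The shRNA lines also differed from each other, a comparison without the control. KRT13, KRT17, KRT19, KRT23, KRT81 and KRT86 were at least 2-fold higher in the shRNA 2 line than in the shRNA 1 line, beside 6.61% of all genes, and 0 keratins were at least 2-fold lower, beside 5.54%. The log2 ratio of shRNA 2 to shRNA 1 was 1.77 for KRT17, 1.49 for KRT13 and 1.37 for KRT23. KRT6A, with -0.81, and KRT6B, with -0.57, lay furthest in the opposite direction. The median over the 17 keratins was 0.48 and over all genes 0.00. Each line is 1 library, so no test of this difference can be had.

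**Figure D4:**
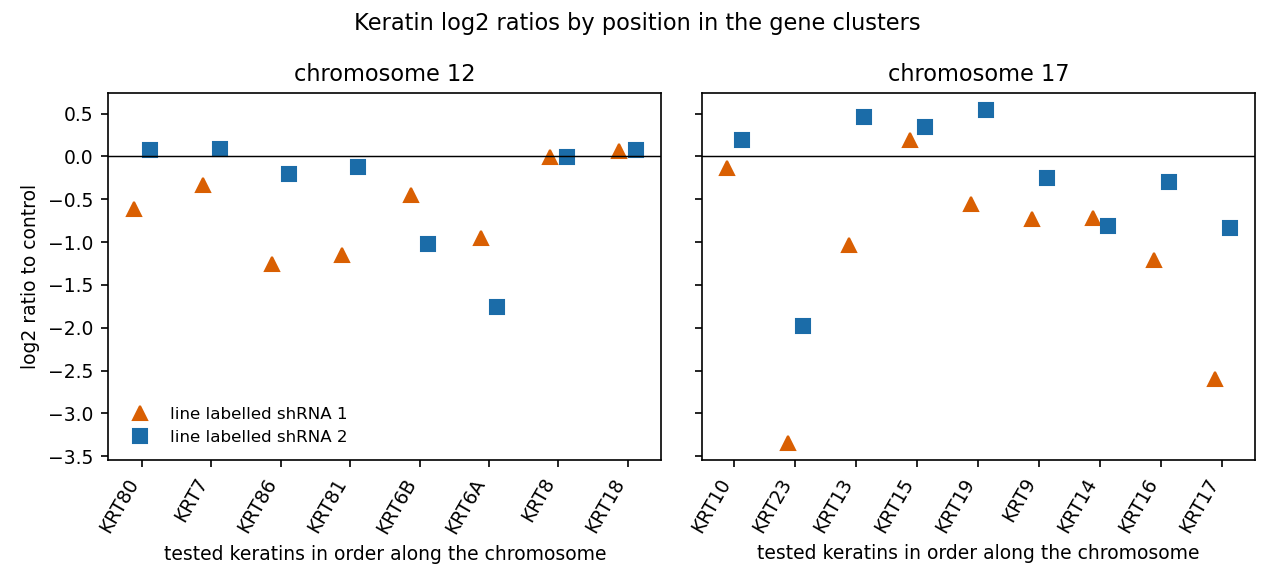
Log2 ratio to the control of the tested keratins in chromosomal order along the chromosome 12 and chromosome 17 clusters, with 1 point per shRNA line. The neighbours KRT8 and KRT18 lie near 0 in both lines, and KRT14, KRT16 and KRT17, the last of the chromosome 17 order, lie below 0 in both lines.

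Position in the clusters was compared in a descriptive way. On chromosome 17, KRT14, KRT16 and KRT17 lie within 42564 bases with no other coding gene between them, and all 3 were below the control in both lines. KRT9, the tested gene directly before them, and KRT23, further off in the same cluster, were also below the control in both lines, with log2 ratios of -0.73 and -0.25 for KRT9 and of -3.35 and -1.98 for KRT23. KRT13, KRT15 and KRT19, which lie between KRT23 and KRT9, were not below it in both. Their log2 ratios were -1.03 and 0.46 for KRT13, 0.19 and 0.34 for KRT15 and -0.56 and 0.54 for KRT19. KRT10, before KRT23, was not below it in both either, at -0.14 and 0.19. On chromosome 12, KRT6B and KRT6A are neighbours in the order of tested genes, with log2 ratios of -0.45 and -1.02 for KRT6B and of -0.95 and -1.76 for KRT6A. KRT86 and KRT81, directly before KRT6B, were also below the control in both lines, at -1.25 and -0.21 and at -1.15 and -0.12. KRT80 and KRT7, before those, were not below it in both, at -0.61 and 0.08 and at -0.33 and 0.09. Further along the same chromosome KRT8 and KRT18 were at -0.01 and 0.06 in the shRNA 1 line.

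Other genes of the filament system were taken from lists. Of 13 partners that anchor or assemble keratin filaments, all 13 were tested and 0 passed. Below the control in both lines were 3, and above in both 3, beside 27.0% and 28.2% of all genes tested. The median log2 fold change of the partners was 0.01. The most abundant were PLEC, which links filaments to hemidesmosomes, at 1685, 1955 and 2302 CPM, and JUP, the plakoglobin of desmosomes, at 861, 662 and 975 CPM. DST, a relative of plectin, was at 487, 481 and 563 CPM, and FAM83H, which takes part in keratin filament organisation, at 412, 435 and 449 CPM. The 3 below in both were EPPK1, PKP1 and PKP2, and the 3 above in both were FAM83H, PKP3 and PLEC. PKP1 had only 11, 2 and 12 counts, and in the shRNA 2 line PKP1 and PKP2 were below by log2 ratios of -0.05 and -0.04 only.

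Of 19 transcription factors of squamous and keratin genes, 0 passed the test, with a median log2 fold change of -0.17. Below the control in both lines were 8, and above in both 2, beside 27.0% and 28.2% of all genes tested. Among the most abundant were STAT3, at 250, 214 and 273 CPM, KLF4, at 206, 130 and 233 CPM, and FOSL1, at 140, 264 and 135 CPM. The 2 above in both were NFE2L2 and OVOL2. SOX2, at 104, 12.2 and 38.9 CPM, and ZNF750, at 1.17, 0.395 and 0.460 CPM, were at least 2-fold lower in both lines. In the shRNA 1 library STAT3 and KLF4 were at their lowest and FOSL1 at its highest. Of 16 other intermediate filament genes, 9 were tested and 0 passed, with 3 below in both and 1 above in both, beside the same shares. The nuclear lamins LMNA, LMNB2 and LMNB1 were at 1357, 1331 and 1599 CPM, at 444, 421 and 299 CPM and at 176, 209 and 134 CPM, and the neuronal filament gene INA at 170, 220 and 159 CPM. LMNB2, NEFH and SYNC were the genes below in both. VIM, the filament protein of mesenchymal cells, was the gene above in both, at 4.75, 67.3 and 17.4 CPM. The antisense genes VIM-AS1 and ENSG00000234961 overlap 25.4% of its exonic bases. Genes outside the 4 most abundant of each list were named after their values were seen.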

How the data were processed

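RNA was sequenced from 1 control and 2 shRNA lines. The authors counted reads per gene with featureCounts 1.6.4 and strand option 1 on an hg38 annotation, per the file headers, and the counts were used as deposited. TopHat2, HTSeq and hg19 are named in the submitters' processing notes, which differs, and no source used here names the library kit. All 52179 identifiers shared with GENCODE 29 have the same coordinates there, and 5 keratin identifiers are in another version. Of the table's identifiers, 56558 matched a symbol.

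Counts were scaled by TMM (factors 0.993, 1.004 and 1.003) on totals of all genes and tested in R 4.3.3 with edgeR 4.0.16 on 17801 genes passing filterByExpr, two-sided, with Benjamini-Hochberg adjustment over all of them at 0.05. The fit had 1 residual degree of freedom for each gene, against 8.35 prior degrees of freedom borrowed from all genes tested. The SE is worked back from the test's F statistic. Log2 ratios of single libraries were taken from log-CPM at prior count 2, without a test. DESeq2 1.42.0, limma 3.58.1, other scalings, filters, folds, lengths and leaving out each shRNA line were alternatives. Shared stretches are of 50 bases, and coding sequences were aligned with MAFFT 7.526. The test was also run on simulated data with the same spread for every gene, the outcome is not reported here, and no support is drawn from it.

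Keratins with at least 1 CPM in a library are named, as are pseudogenes with at least 10 counts and up to 4 members of each other list by mean CPM. A gene of these lists and some sequences are not reported here. The members and lists were chosen with earlier results of these data known. Exact conditional intervals are at 95%.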

Additional observations from a re-analysis of the deposited data

How the results depend on the processing

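With no filter on low counts, 2 keratins were called in place of 0, and 3 in place of 1 were at least 2-fold lower in both lines. Without that filter, genes near the limit of detection enter the rule, such as KRT74 with 5, 0 and 0 counts. A 1.5-fold threshold gave 4. With 1 shRNA line left out, a value with no test, the rule could ask only for the line that remained and was thus weaker. By it, 3 keratins were at least 2-fold lower without the line labelled shRNA 1 and 6 without the line labelled shRNA 2. The shares of all genes under these alternative fold rules were not worked out, so nothing about keratins is read from these counts. The median log2 fold change of -0.54 became -0.11 with no filter and -0.10 with a filter of 5 CPM, and was -0.13 without the line labelled shRNA 1 and -0.74 without the line labelled shRNA 2. The basal keratins' summed log2 ratio of -0.40 became -0.38 with total counts and -0.11 without division by length, and was -0.42 to -0.40 with 1 line left out. With both lines kept, a pair of genes near 0 changed sign: KRT19 at -0.01 with limma-voom and KRT8 at 0.01 with total counts. The cause of these shifts was not tested. Among values of single keratins under alternatives, 2 passed the threshold, 2 with a test changed sign and 4 without a test moved by more than the spread. The other 148 include values without a test that changed sign while moving by less than that spread. These were KRT10 and KRT19 without the line labelled shRNA 2, at -0.15 and -0.57. Without the line labelled shRNA 1 they were KRT13, KRT7 and KRT80, at 0.46, 0.08 and 0.08. The stress and simple keratin sums, the sum of all keratins and the type I to type II ratio moved by less than the spread between the lines under every alternative run. With 2 lines, leaving out 1 can hardly move a mean by more than that spread, so this says little about leaving lines out. Without the line labelled shRNA 1, the log2 ratio of the sum of all keratins went from -0.03 to 0.20. Without the line labelled shRNA 2, the simple keratins went from 0.03 to -0.21 and the type I to type II ratio from 0.11 to -0.19. The stress keratins stayed below the control, at -1.17 and -1.38. No paired analysis was possible because the single control library carries no number that it shares with both shRNA lines. Genes below 3 counts in every library cannot show a difference at this depth.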

Other observations

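Keratin-associated genes are outside the keratin rule, and 15 of 116 had a count. KRTAP2-3, a hair keratin-associated protein gene, had 16 counts in the control, 58 in the shRNA 1 library and 3 in the shRNA 2 library, and its neighbour KRTAP2-4 had 7, 17 and 4. In both the shRNA 1 library was the highest. These 2 genes were chosen after their values were seen. KRTCAP2, a subunit of the oligosaccharyltransferase complex in spite of its name, had 52, 108 and 60 counts.

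Of 149 keratin pseudogenes, 63 had a count and 6 reached 10 counts. KRT8P12 had 154, 154 and 178 counts, KRT8P3 had 52, 49 and 52, KRT8P33 had 12, 12 and 22 and KRT8P46 had 9, 15 and 18, and KRT87P had 97, 95 and 95. The antisense gene KRT7-AS had 737, 607 and 916 counts beside 1291, 1017 and 1551 for KRT7, and KRT10-AS1 had 139, 143 and 218 beside 715, 643 and 926 for KRT10. In each pair the shRNA 2 library was the highest.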
